A study of Mus musculus with 16 samples.

Results

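Nfkbiz encodes IkappaB-zeta, a nuclear member of the IkappaB family. Its row was followed through all 16 libraries of single bone marrow cells, 1 gene of 52542 gene rows, in 5157 kept cells of 6144 wells. The gene was chosen by name with earlier results of these data known, in which its level set LSK libraries 9 to 16 apart from LSK libraries 1 to 8. Its level over libraries is therefore a description, given with no test. In brief, Nfkbiz had 17 UMIs in libraries 1 to 8 and 189 in libraries 9 to 16, with a similar depth in both.

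The hosts were lethally irradiated CD45.1/CD45.2 mice, and the strain given is C57BL/6J. Their graft was a 1:1 mixture of fetal liver cells from control (CD45.1) and from Regnase-1-/-Regnase-3-/- (CD45.2) donors. LSK cells (lineage-negative, Sca1+, Kit+, the fraction that holds blood stem cells and multipotent progenitors) were sorted singly 4 weeks later and their mRNA 3' ends counted by MARS-seq. MARS-seq is a plate method that tags each captured molecule with a unique molecular identifier (UMI), so that copies made by PCR are counted once. The labels put every library in the same LSK group, and neither they nor the well table give a genotype, a mouse or a CD45 allele for a library or a cell. The 2 runs of libraries used here, 1 to 8 and 9 to 16, are blocks of the libraries' titles, and what differed between them cannot be told apart: genotype, mouse, sort and plate.

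IkappaB-zeta differs from the classical IkappaB proteins, which hold NF-kB in the cytoplasm: it is itself induced by Toll-like receptor and IL-1 receptor signals, enters the nucleus, and works with NF-kB p50 on the promoters of secondary response genes. Its mRNA is short-lived. The RNase Regnase-1, the product of Zc3h12a, cuts stem-loops in the 3' UTRs of mRNAs of immune genes, and Nfkbiz is among the targets described for it in other cells. Regnase-3, the product of Zc3h12c, is a relative of the same family.

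Nfkbiz lies on the minus strand at chr16:55811375-55838899 (GRCm38), and its 3' UTR covers chr16:55811375-55812732, the stop codon included. Regnase-1 is known for stem-loops with a loop of pyrimidine, purine, pyrimidine, so the 1355 bases after the stop codon were searched on the transcript strand for stems of at least 6 pairs, with at most 1 G-U pair, closed by such a 3-base loop. The search found 2, both within the first 146 bases of the UTR. They are shown because they are the type of element through which Regnase-1 acts; the capitals mark the loop.
stem-loop 1: ttgtttcTATgaaacaa
stem-loop 2: ttcactatTATatagtgga
Stem-loop 1 has 7 pairs and lies at bases 101 to 117 after the stop codon (chr16:55812613-55812629). Stem-loop 2 has 8 pairs, of which 1 is a G-U pair, and lies at bases 128 to 146 (chr16:55812584-55812602). Of 8150 other genes with a 3' UTR at least as long, 22.6% held at least 1 such stem-loop in the same number of bases and 3.13% held at least 2. A match is a description of the sequence, and cutting was not measured.

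Depth was alike across libraries. Each library gave 295 to 345 kept cells and 500092 to 810096 UMIs, and the median cell held 1146 to 1993 UMIs. The sorted phenotype was visible in the RNA: in counts per 1000000 UMIs (CPM), Kit ran from 128 to 210 and Ly6a, which encodes Sca1, from 133 to 283 CPM. Of the marker lists of cells outside the gate, summed T and NK cell markers reached at most 9.73 CPM, mature neutrophil and macrophage markers 35.4 CPM, mature B cell markers 59.6 CPM and endothelial and stromal markers 150 CPM. Red cell markers were the highest, at 105 to 379 CPM in libraries 1 to 8 and 114 to 230 CPM in libraries 9 to 16. Only 3 red cell genes, 1 mature B cell gene and 1 endothelial and stromal gene reached the 50 UMIs needed to compare the runs. None of them was separated between the runs, next to 0.677% of all genes upwards and 0.606% downwards, so nothing is read from it. Zc3h12a ran from 1.57 to 10.4 CPM in libraries 1 to 8 and from 7.63 to 17.4 CPM in libraries 9 to 16, with overlap. Zc3h12c ran from 4.00 to 15.5 CPM and from 2.55 to 12.1 CPM. The part of either gene that was deleted is not given, so their 3' counts do not check a genotype. Xist, the RNA of the inactive X chromosome in females, was at 2.0 to 47.1 CPM in libraries 1 to 8 and had no UMI in libraries 9 to 16.

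Nfkbiz was near the limit of detection in the first run of libraries. LSK libraries 1, 2, 3, 4, 5 and 8 had 4, 3, 4, 1, 3 and 2 Nfkbiz UMIs. These are 5.21, 6.00, 5.16, 1.77, 4.76 and 2.77 CPM. Libraries 6 and 7 had none, with exact 95% Poisson upper bounds of 5.81 and 5.13 CPM. For scale, 3 UMIs of the library's total would be 4.72 and 4.17 CPM. The median of the 8 was 3.77 CPM, and their summed level was 3.20 CPM with an exact 95% Poisson interval of 1.86 to 5.12, which covers counting error only.

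In the second run, LSK libraries 9 to 16 had 27, 30, 36, 28, 23, 19, 14 and 12 Nfkbiz UMIs. These are 40.8, 52.0, 45.9, 34.6, 40.3, 33.7, 26.7 and 18.96 CPM, with a median of 37.5. The summed level was 36.9 CPM (31.8 to 42.5). Every library of the second run was above every library of the first: the lowest was library 16 at 18.96 CPM, and the highest of the first run was library 2 at 6.00 CPM. Of the 11218 genes with at least 50 UMIs in all, 0.677% were separated in this direction and 0.606% in the other. Since Nfkbiz was chosen for this separation, nothing is read from it here.

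Other features of the libraries moved with the runs. Summed neutrophil granule markers were at 507 to 1058 CPM in libraries 1 to 8 and at 1228 to 2411 CPM in libraries 9 to 16. Summed megakaryocyte markers were at 192 to 250 and 269 to 612 CPM, and summed lymphoid markers at 949 to 1502 and 569 to 847 CPM. None of these pairs of ranges overlapped, but most members did. With at least 50 UMIs, 3 of 7 granule genes and 1 of 8 megakaryocyte genes (Selp) were separated upwards. Of 8 lymphoid genes, 1 was separated downwards, Dntt (medians 558 and 234 CPM), whereas Ighm (246 and 204 CPM) overlapped. Over all genes the shares were 0.677% upwards and 0.606% downwards. Members of the monocyte and dendritic cell list differed in direction: the MHC class II genes H2-Aa (medians 147 and 64.2 CPM) and Cd74 (121 and 47.8 CPM) were lower in the second run without overlap, while Irf8 (37.5 and 70.8 CPM), Ly86 (16.03 and 38.4 CPM) and Csf1r (10.8 and 21.1 CPM) had higher medians with overlap. Xist divided the libraries too, on few UMIs: 75 in libraries 1 to 8, from 1 to 34 per library, and 0 in libraries 9 to 16. The part of these differences in the level of Nfkbiz was not tested; its level inside marker gates is given below.

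Single libraries are less certain than the runs. The interval of library 2 (1.24 to 17.5 CPM) overlapped those of libraries 15 and 16 (14.6 to 44.8 and 9.80 to 33.1 CPM), and the other 6 libraries of the second run had lower bounds above 17.5 CPM. With the 16 libraries placed in order of level, each of the 15 neighbouring pairs had overlapping intervals. Within the second run, library 10 (35.1 to 74.2 CPM) and library 16 did not overlap.

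**Figure D1:**
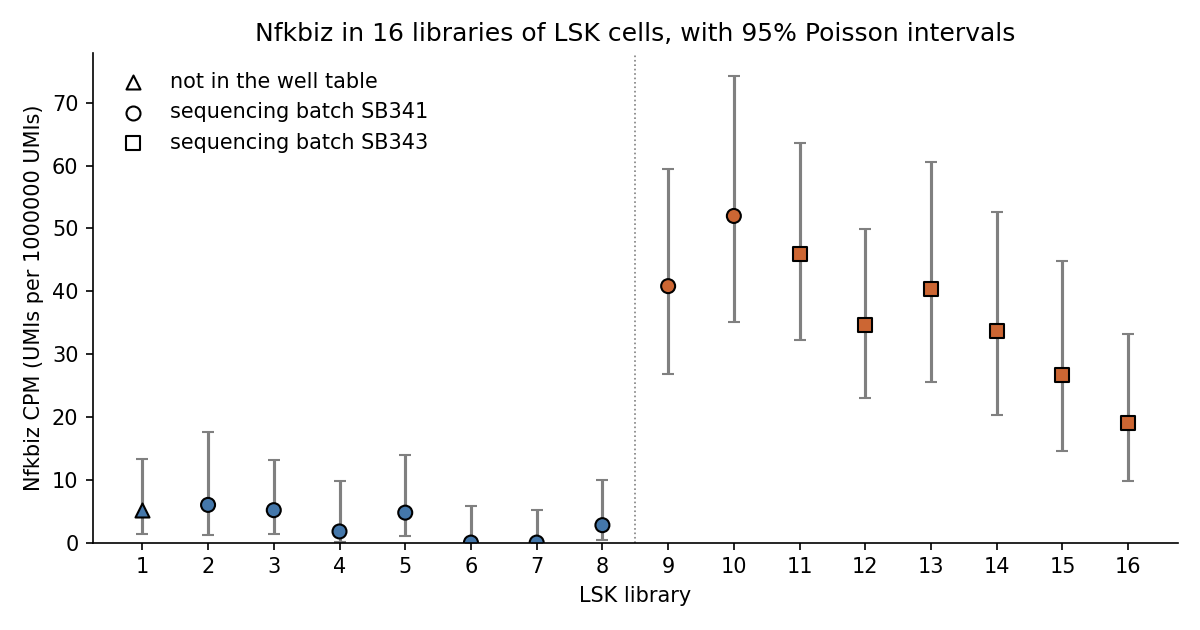
Nfkbiz CPM (y axis) in each of the 16 LSK libraries (x axis), with exact 95% Poisson intervals as bars and the sequencing batch as the marker shape. Libraries 1 to 8 (blue) lie between 0 and 6.00 CPM and libraries 9 to 16 (orange) between 18.96 and 52.0 CPM.

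The sequencing batch of the well table followed the runs in part. Libraries 2 to 10 were listed in batch SB341 and libraries 11 to 16 in SB343, while library 1 had no entry in the table. Within SB341, the 7 libraries of the first run ranged from 0 to 6.00 CPM, and libraries 9 and 10 were at 40.8 and 52.0 CPM. The 6 libraries of SB343, all of the second run, ranged from 18.96 to 45.9 CPM. Only libraries 9 and 10 of the second run shared a listed batch with libraries of the first. The part of the sequencing batch in the level of Nfkbiz was not tested.

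Of the kept cells, 169 had at least 1 UMI, 17 in libraries 1 to 8 and 152 in libraries 9 to 16. This is 0.660% of 2575 cells (Wilson 95% interval 0.413 to 1.05) in the first run and 5.89% of 2582 cells (5.04 to 6.86) in the second. By library the share was 0 to 1.21% in the first run and 3.73 to 7.92% in the second. Libraries 6 and 7 had 0 of 313 and 0 of 328 cells, with Wilson upper bounds of 1.21% and 1.16%. All 17 positive cells of the first run had a single UMI. In the second, 121 cells had 1 UMI, 27 had 2, 2 had 3 and 2 had 4. The 60 wells listed as empty held 801 UMIs and none of Nfkbiz, and 7 Nfkbiz UMIs lay in the other wells that were not kept, all in the second run. No well identifier was found in more than 1 library. No cell type that lacks Nfkbiz could be named within the gate, so no share of background is set beside these values.

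Positive cells were deeper. Their median was 2789 UMIs against 1559 in the other cells of the first run, and 2426 against 1524 in the second. The level per UMI was therefore also taken by depth class. In cells of 500 to 999 UMIs Nfkbiz was at 4.13 CPM in the first run and 51.1 CPM in the second; in cells of 4000 UMIs or more the values were 3.42 and 40.0 CPM. The gene was chosen for this contrast between runs, so these values are a description. Their Poisson intervals cover counting error in pooled cells and not the spread between libraries. The share of cells grew with depth in the second run, from 3.24% of cells with 500 to 999 UMIs to 16.8% of cells with 4000 or more.

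With each cell thinned to 1000 UMIs, which left out 639 cells of the first run and 678 of the second, the median share per library was 0.185% in the first run and 3.09% in the second. The ranges then overlapped, at 0 to 1.03% and 0.870 to 5.82%. Thinned to 500 UMIs, with no cell left out, the medians were 0.302% and 2.05% and the ranges 0 to 0.606% and 0.339 to 2.39%. At these depths a library's share rests on few cells with a UMI.

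**Figure D2:**
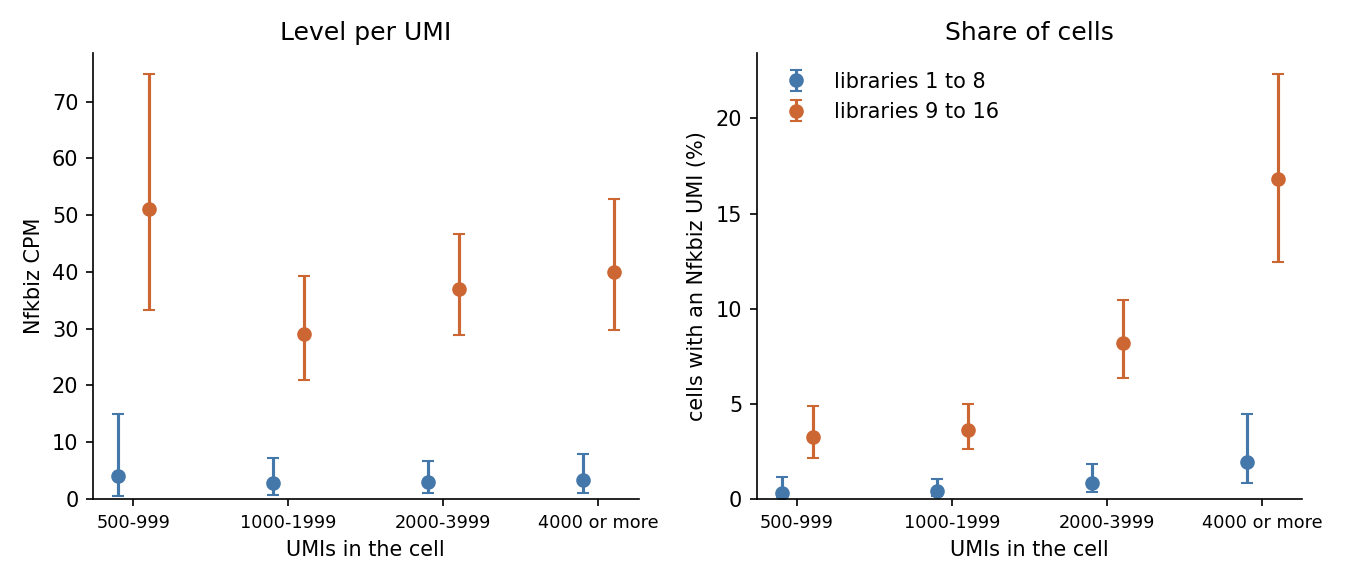
Left, Nfkbiz CPM of cells grouped by their UMI total, with 95% Poisson intervals; right, the percentage of those cells with an Nfkbiz UMI, with 95% Wilson intervals. The level per UMI was 29.1 to 51.1 CPM in every depth class of libraries 9 to 16 (orange) and 2.86 to 4.13 CPM in libraries 1 to 8 (blue), while the share rose with depth.

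Lineage was examined with gates, each holding the cells with a UMI of at least 2 different genes of a marker list; the gates overlap, and 1643 cells were in none. The choice of Nfkbiz rested on the contrast between runs, whereas gated and other cells were compared inside each library. The test was an exact two-sided sign-flip permutation test over the libraries with at least 10 cells on both sides, adjusted by the Benjamini-Hochberg method over the 8 gates tested. No gate passed an adjusted p of 0.05 by CPM, and at an unadjusted 0.05 only the lymphoid gate did. The mast cell and basophil gate held 20 cells and could not be tested. These libraries may share mice, so p-values measure the spread between plates.

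The lymphoid gate (Dntt, Il7r, Rag1, Flt3, Satb1 and 5 others, genes of lymphoid-primed progenitors) held 1320 cells. In libraries 9 to 16, gated cells had 85 Nfkbiz UMIs, or 54.1 CPM (43.2 to 66.9), against 29.3 CPM (23.9 to 35.5) in the other cells. By library the gated cells were at 75.5, 45.04, 75.9, 44.5, 67.2, 51.7, 57.2 and 24.9 CPM, and the other cells at 27.3, 55.1, 33.9, 29.6, 28.1, 25.7, 17.4 and 15.3 CPM. Gated cells were higher in 7 of those 8 libraries, with library 10 the exception. In libraries 1 to 8 the gated cells had 5 UMIs, 2.28 CPM, and the others 3.84 CPM.

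Over all 16 libraries the lymphoid-gated cells exceeded the other cells by 12.3 ± 19.9 CPM (SD, n = 16), higher in 8 libraries, lower in 6 and at 0 in both classes in 2 (exact permutation p = 0.0295, adjusted p = 0.236). Over libraries 9 to 16 alone the mean difference was 26.2 CPM (exact permutation p = 0.0234, adjusted p = 0.188). Within SB341 the mean difference was 3.17 CPM over 9 libraries (exact permutation p = 0.969, adjusted p = 0.969). Of these, 7 were first-run libraries with 0 to 4 Nfkbiz UMIs each, and libraries 9 and 10 went in opposite directions. Within SB343 it was 28.6 CPM over 6 libraries (exact permutation p = 0.0313, the smallest 6 libraries allow, adjusted p = 0.25). The batches differ in their share of first-run libraries and were not compared. Cells of the second run in the lymphoid gate but not in the granule gate were at 78.3 CPM (56.7 to 106, 43 UMIs in 280 cells), and cells in both gates at 41.1 CPM (29.6 to 55.5, 42 UMIs in 277 cells), as a description chosen after the values were seen.

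When shares of cells replaced CPM, the lymphoid gate (4.21 percentage points higher, exact permutation adjusted p = 0.0190) and the mitotic gate (2.40 points higher, exact permutation adjusted p = 0.0176) passed. Gated cells were deeper, with a median of 2333 against 1386 UMIs for the lymphoid gate and 2646 against 1233 for the mitotic gate. With each cell thinned to 1000 UMIs, neither gate passed: the mean difference was 19.8 CPM for the lymphoid gate (exact permutation adjusted p = 0.336) and 0.439 CPM for the mitotic gate (exact permutation adjusted p = 1). By CPM the mitotic gate (Mki67, Top2a, Ccnb1 and 7 others) differed by 1.86 ± 12.1 CPM (SD, n = 16), and its cells in the second run were at 37.9 CPM against 35.5 CPM.

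The megakaryocyte gate (Pf4, Itga2b, Gp9, Selp and 5 others, genes of the platelet lineage) lay on the other side. In libraries 9 to 16 its 246 cells had 14 Nfkbiz UMIs, 19.7 CPM (10.8 to 33.0), against 39.7 CPM (34.0 to 46.0) in the other cells. By library the gated cells were at 10.4, 22.1, 0, 54.8, 0, 38.5, 16.5 and 12.2 CPM, below the other cells in 6 of 8, with libraries 12 and 14 above them. The mean difference over 16 libraries was -10.5 ± 21.7 CPM (SD, exact permutation p = 0.0731, adjusted p = 0.292), lower in 11 and higher in 3.

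The monocyte and dendritic cell gate (Irf8, Csf1r, Cd74, Ctss and 8 others) was at 53.4 CPM (38.9 to 71.4) in the second run against 33.6 CPM, with a mean difference of 8.17 ± 24.1 CPM over libraries (SD, n = 16, exact permutation adjusted p = 0.516). The neutrophil granule gate (Mpo, Elane, Prtn3, Ctsg and 6 others) held 937 cells of the second run at 36.2 CPM, next to 37.6 CPM in the other cells, and 506 cells of the first run at 2.32 CPM. Of its 7 genes with at least 50 UMIs, Mpo, Elane and Ctsg were themselves separated between the runs, higher in libraries 9 to 16. That is 3 of 7, next to 0.677% of all genes. Prtn3, Ms4a3, Ly6c2 and Gstm1 overlapped, the last with medians of 95.4 and 91.4 CPM. The stem cell gate (Hlf, Mecom, Procr and 6 others) was at 33.0 CPM against 37.3 in the second run and had no Nfkbiz UMI in 207 cells of the first. The erythroid gate was at 34.6 CPM against 37.2, and the interferon response gate at 28.6 CPM against 37.6, on 12 UMIs. Cells in no gate were at 25.6 CPM in the second run and 3.87 CPM in the first.

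In each of the 8 gates tested, the second run was above the first: gated cells ranged from 0 to 6.49 CPM in libraries 1 to 8 and from 19.7 to 54.1 CPM in libraries 9 to 16. The Poisson intervals of the 2 runs overlapped in the megakaryocyte gate (0.0654 to 14.4 and 10.8 to 33.0 CPM) and in the interferon response gate (1.77 to 16.6 and 14.8 to 50.04 CPM). These intervals leave out the spread between libraries. Since the gene was chosen for the contrast between runs, nothing is read from that contrast inside the gates either.

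**Figure D3:**
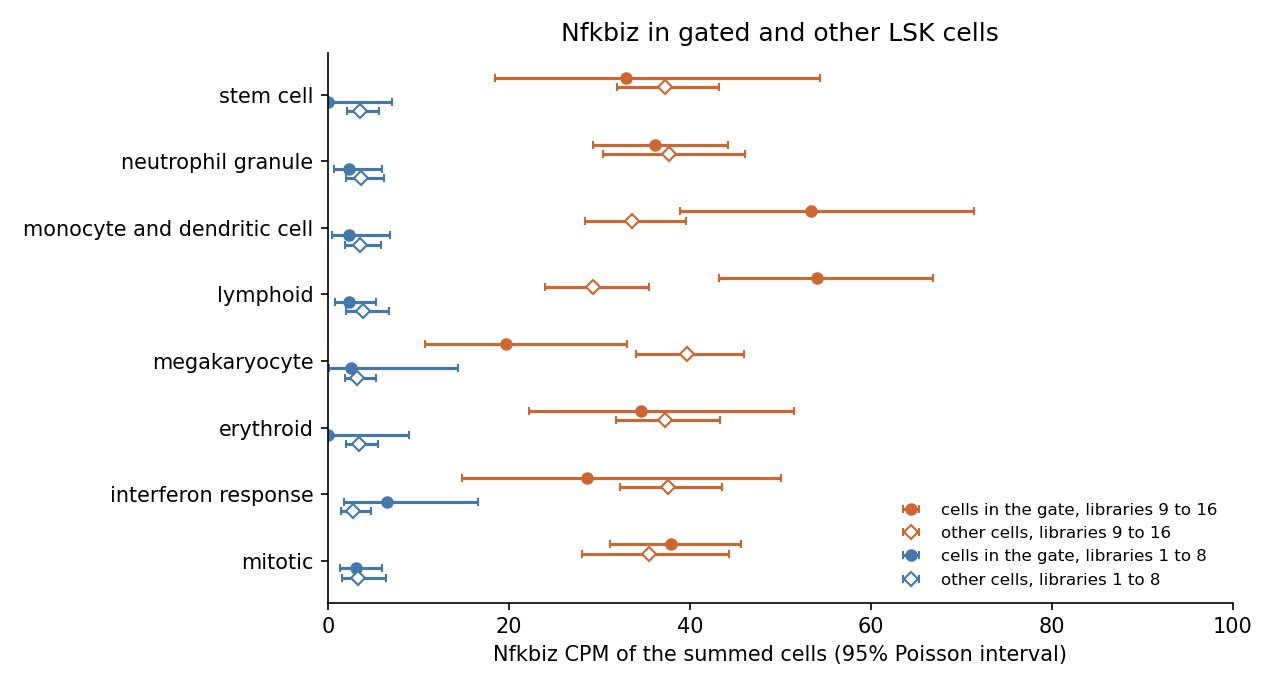
Nfkbiz CPM (x axis) of cells in each marker gate (filled circles) and of the other cells (open diamonds), summed over libraries 9 to 16 (orange) and 1 to 8 (blue), with 95% Poisson intervals. In libraries 9 to 16 the lymphoid gate lay at 54.1 CPM and the megakaryocyte gate at 19.7 CPM; in libraries 1 to 8 every gate lay at or below 6.49 CPM.

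Of the 76 genes higher in libraries 9 to 16 without overlap, Nfkbiz had the 6th widest gap, 1.497 on the log2 scale between its lowest library of the second run and its highest of the first (0.5 UMI added). The genes most like it by that measure were taken as those with the widest gaps. Gm14094, Gm8420 and Gm5292 led, with gaps of 4.58, 4.07 and 3.64 and medians of 10.1, 9.38 and 4.66 CPM in the first run against 522, 547 and 283 CPM in the second. Zfp990, named as a zinc finger protein gene, followed with a gap of 2.95 (medians 1.48 and 29.1 CPM). Ehd3, which acts in endosomal recycling, had a gap of 1.56 and ran from 0 to 15.2 CPM and from 46.1 to 66.4 CPM.

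After Nfkbiz came Nudc-ps1 (1.31), Gm8885 (1.05) and Gm10036 (0.86), then Tfrc and Ebi3 (0.82 each). Tfrc, the transferrin receptor that takes up iron and itself a described Regnase-1 target, ran from 26.3 to 40.0 CPM in the first run (median 29.9) and from 71.0 to 116 CPM in the second (median 99.0). Ebi3, a subunit of IL-27 and IL-35, ran from 31.8 to 62.4 CPM and from 110 to 170 CPM. Of the 76 genes, 31 were gene models or pseudogenes by name, as were 33 of the 68 lower genes and 1428 of the 11218 tested. Counts of such near copies can be split by mapping and are uncertain: Nudc-ps1 had medians of 24.5 and 139 CPM in the 2 runs while its parent gene Nudc had 186 and 75.2 CPM. Nfkbiz overlaps no other annotated gene. Its nearest neighbours with counts, Nxpe3 and Cep97, overlapped between the runs (20.6 to 44.0 and 19.3 to 50.6 CPM for Nxpe3). Of the 22 genes tested within 5 Mb on either side, 0 were separated. Next to 0.677% of all genes upwards and 0.606% downwards, that is near the background and no result about the region.

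**Figure D4:**
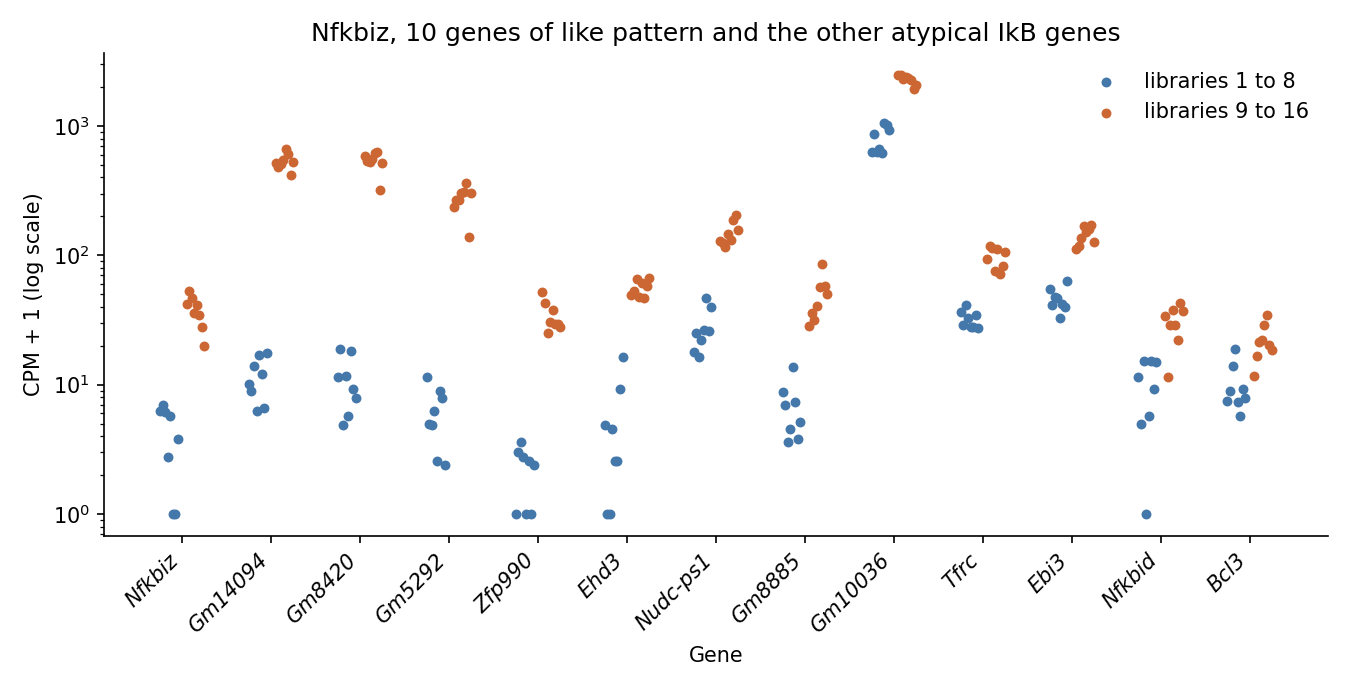
CPM plus 1 on a log axis (y) of Nfkbiz, the 10 genes with the widest gaps between the runs, and the other atypical IkappaB genes Nfkbid and Bcl3 (x); each point is a library, blue for 1 to 8 and orange for 9 to 16. Nfkbiz and the 10 genes show no overlap between the runs, whereas Nfkbid and Bcl3 do.

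Relatives and partners of IkappaB-zeta are given by their levels. Since 0.677% of all genes tested were separated upwards and 0.606% downwards, a count of 0 in a list of this size is near the background and is no result about the list; this holds for each list below. Nfkbid, which encodes the nuclear protein IkappaB-NS and is a described Regnase-1 target, ran from 0 to 14.2 CPM in the first run (median 9.38) and from 10.4 to 42.0 CPM in the second (median 30.7). Only library 10 of the second run, at 10.4 CPM, lay within the range of the first. Bcl3, the third atypical nuclear IkappaB, ran from 4.72 to 17.7 CPM (median 7.46) and from 10.6 to 33.7 CPM (median 19.7), with libraries 9, 10 and 16 within the range of the first run. Of the 15 genes of NF-kB subunits, kinases and inhibitors with at least 50 UMIs, 0 were separated. Nfkb1, whose product is processed to the p50 partner of IkappaB-zeta, had medians of 114 and 126 CPM, and Nfkbia, the classical feedback inhibitor, 44.7 and 34.1 CPM.

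Upstream, 0 of 11 measured genes of Toll-like receptor and IL-1 receptor signalling were separated. The adaptor Myd88 had medians of 25.3 and 28.9 CPM, and the receptor Il1r1 27.6 and 16.5 CPM. Downstream, few genes that need IkappaB-zeta in other cells were seen at all. Of 9, Il12b, Csf3, Edn1 and Cxcl1 had no UMI in any kept cell, and Il6, Csf2, Lcn2 and Ccl2 had 2 to 5. Cebpd alone reached 50, with 111 UMIs, at 3.54 to 9.998 CPM and 8.66 to 22.2 CPM with overlap. The sum of the 9, mostly Cebpd, ran from 4.17 to 9.998 CPM and from 10.4 to 25.9 CPM without overlap, and was not tested.

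Of the 21 other Regnase targets described in other cells, 10 reached 50 UMIs and 1 of these, Tfrc, was separated, next to 0.677% of all genes in that direction. Rel, an NF-kB subunit, ran from 7.87 to 31.3 and from 23.5 to 34.8 CPM, and the transcription factor gene Gata2 from 61.4 to 113 and from 65.7 to 103 CPM. Of the 4 measured genes of the Regnase family and the 6 measured partners in decay or stem-loop binding, 0 were separated. Rc3h1 (Roquin-1, which binds stem-loops) had medians of 43.0 and 68.2 CPM and Arid5a, known to protect some Regnase-1 targets, 26.5 and 19.1 CPM. Sorting can induce immediate early genes, so their values stand beside those of Nfkbiz. Of 16 measured, 0 were separated, and their summed level was 482 to 914 CPM in the first run and 494 to 864 CPM in the second. Myc had the largest part of the sum (medians 237 and 272 CPM). Fos had medians of 2.38 and 2.13 CPM and reached 38.8 and 58.5 CPM in single libraries. Jun had 1.79 and 1.76 CPM and reached 51.3 and 52.1 CPM.

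Genes that go with Nfkbiz were sought within libraries 9 to 16, where the 152 positive cells were set against 760 negative cells of the same library and nearest depth, 5 for each. Median depth per library was 1811 to 2978 UMIs in positive and 1823 to 2900 in matched negative cells. Sums per library were tested with edgeR's quasi-likelihood test, with the library as a block and Benjamini-Hochberg adjustment over all genes tested. Of 1843 genes, 1 passed an adjusted p of 0.05, which is 0.0543%, and 105 were under 0.05 unadjusted.

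The gene called was Pf4, platelet factor 4, a granule protein of megakaryocytes and one of the markers that define the gate above. The call and the gate difference share the positive cells of libraries 9 to 16, so neither backs the other. Pf4 met the filter on low counts mostly through the sums of negative cells, where it was higher. It was lower in positive cells: libraries 9 to 16 had 4, 7, 0, 2, 0, 12, 0 and 0 Pf4 UMIs in positive cells and 21, 33, 47, 40, 115, 87, 19 and 3 in negative cells. The level ranged from 0 to 261 CPM (median 14.9) and from 20.8 to 447 CPM (median 123). The log2 fold change was -1.62 ± 0.34 (SE, edgeR adjusted p = 0.0235), lower in 8 of 8 libraries, by a small margin in library 10 (139 against 140 CPM). The call held within SB343 alone (log2 fold change -2.26, edgeR adjusted p = 0.0020) and without library 9. It also held with no filter on low counts, a fit that called 76 genes lower and 0 higher. It did not hold with DESeq2 (adjusted p = 0.999), nor without library 13 (log2 fold change -1.13, edgeR adjusted p = 0.907). It was also lost without library 11, 12, 15 or 16 (edgeR adjusted p 0.0602 to 0.174), and without library 10 or 14 Pf4 did not pass the filter on low counts.

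No gene was called higher. Among the genes of smallest p, given as not called, were Pbrm1, Plac8, Ly6e and Ggnbp2. Pbrm1, a subunit of a SWI/SNF chromatin remodeller, had a median of 272 CPM in positive and 156 CPM in negative cells, a log2 fold change of 0.81 ± 0.19 (SE, edgeR adjusted p = 0.0588), higher in 8 of 8 libraries. Plac8, a gene of early lymphoid and myeloid progenitors, had medians of 1994 and 1769 CPM (0.28 ± 0.07, edgeR adjusted p = 0.0625, higher in 8 of 8). For Ly6e and Ggnbp2 the log2 fold changes were 0.29 and 0.97, with edgeR adjusted p of 0.314 and 0.410. On the lower side, Vamp5, Apoe, Ndufa2 and D8Ertd738e had log2 fold changes of -0.85, -0.81, -0.49 and -0.80 and edgeR adjusted p of 0.410 to 0.774.

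**Figure D5:**
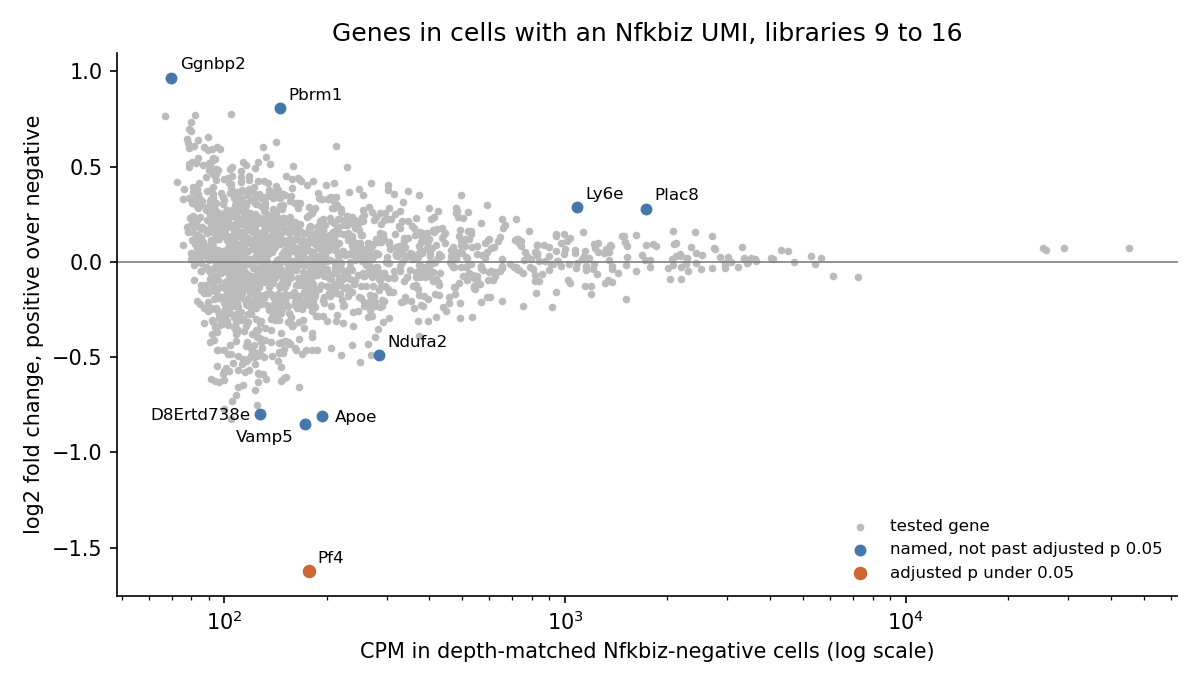
Log2 fold change of positive over depth-matched negative cells (y axis) against the CPM in negative cells (x axis, log scale) for the 1843 genes tested in libraries 9 to 16. Pf4 (orange) at -1.62 is past the adjusted p of 0.05, and the other named genes (blue) are not.

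Members of the lymphoid list passed the filter on low counts in 4 of 10 cases, and each had a positive estimate, with a median log2 fold change of 0.46 against 0.02 over all genes tested, and none was called: Ighm 0.61, Satb1 0.55, Dntt 0.37 and Flt3 0.11 (edgeR adjusted p 0.503 to 0.981). Of the neutrophil granule list, 4 were tested, 2 above and 2 below 0, with a median of 0.001. Tfrc, of like pattern over libraries, had medians of 134 CPM in positive and 87.3 CPM in negative cells (log2 fold change 0.65 ± 0.27, SE, edgeR adjusted p = 0.774, higher in 6 of 8 libraries). Nfkb1 was at 0.11 and Myc at 0.10 (edgeR adjusted p = 0.981 for both). Nfkbid and Bcl3 were too sparse in the 152 positive cells to be tested.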

How the data were processed

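The authors deposited UMI counts per gene and well, not normalized, for 16 libraries of 384 wells, and a table of wells. The submitters' processing notes name bcl2fastq 2.15.0.4 and the mm10 build. The aligner, the counting tool and its strand setting were not named there. Kept cells had at least 500 UMIs without the 92 spike-in rows, under 20% mitochondrial UMIs, and were not listed as empty; library 1 is not in the well table and was kept by the first 2 criteria. Counts were summed per library and divided by its total (CPM). The gene, the marker lists and the tests were chosen with earlier results of these data known. Named genes were Nfkbiz, the 10 with the widest gap between the runs, the 10 of smallest p among called genes in each direction (where fewer than 5 were called, the 5 of smallest p), and members of the fixed lists; 1 gene that the rule names is not reported here. Positive and negative cells were tested with edgeR 4.0.16 (TMM, filterByExpr) in R 4.3.3, with DESeq2 1.42.0 as an alternative; other values used Python 3.11.15 with scipy 1.17.1. Both tests were checked on simulated data. The stem-loops were read from GENCODE transcript sequences and placed on GRCm38 with GENCODE gene models. No doublet caller was run, since wells were listed with at most 1 cell, library 1 aside. UMI intervals cover counting error only.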

Additional observations from a re-analysis of the deposited data

How the results depend on the processing

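The gap in Nfkbiz CPM between the runs kept its sign in every alternative run, at 11.3 to 16.8 CPM between the nearest libraries. Leaving mitochondrial and ribosomal protein genes out of the total moved the median of libraries 9 to 16 to 48.8 CPM. Thinning moved the share of cells with a UMI: at 500 UMIs the median of libraries 9 to 16 was 2.05% and the lowest of them lay -0.267 points from the highest of libraries 1 to 8; at 1000 UMIs the medians were 0.185% and 3.09% and that distance was -0.161 points. With at least 500 UMIs per gene, 47 genes were higher and 32 lower in libraries 9 to 16 without overlap.

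By share of cells, 2 gates passed the adjusted threshold instead of 0, and the stem cell (0.397 points), granule (1.78), erythroid (0.772) and interferon (1.53) differences changed sign. None of these 4 passed. By CPM, sign changes that did not pass were the mitotic gate with 3 markers (-1.05), the interferon gate with thinned cells (42.1) or in SB341 alone (1.14), and the granule gate from 1000 UMIs up (0.0509). Leaving out each library in turn, the interferon difference ranged from -4.32 to 0.0403 (above 0 without library 11) and the granule difference from -2.57 to 0.634 (above 0 without libraries 14 and 16). No gate passed by CPM in any alternative, leaving out each library included.

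Genes called between positive and negative cells were few in most fits. With 2 negatives per positive cell, 1 was higher (Pbrm1) and 0 lower. With all negatives, with DESeq2 and with no library block, 0 were called, at 248, 44 and 89 genes under an unadjusted 0.05. Leaving out a library gave 0 to 1 lower, and SB343 alone gave 2 lower. With no filter on low counts 76 were lower and 0 higher, and the estimates of the genes tested in the main analysis shifted by a median of -0.29, which took Plac8 to -0.0251 and Ly6e to -0.0181. Apoe passed without library 10, in SB343 alone and with no filter (edgeR adjusted p 0.00334 to 0.00589), and Pf4 without library 9, in SB343 alone and with no filter. Nfkbiz had 206 UMIs in all, which limits the precision within gates.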
